A study of Mus musculus with 18 samples.

Results

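Loss of 1 allele of CK2a', the catalytic subunit of protein kinase CK2 encoded by Csnk2a2, was examined in the striatum of mice that carry the zQ175 knock-in allele of huntingtin. The comparison sets 5 zQ175 libraries against 5 zQ175:CK2a'(+/-) libraries, 10 of the 18 libraries of the series, and its members were taken from the genotype in each library's label. All 10 mice were of strain C57BL/6, were 12 to 14 months old and carried 1 zQ175 allele, and the groups differ in carrying both CK2a' alleles or 1. Each library came from the dissected striatum of 1 mouse, from total RNA prepared with a kit that keeps the strand, and all libraries were sequenced together in 1 lane. The remaining 8 libraries, 5 WT and 3 CK2a'(+/-), show the same allele loss without zQ175. In the study's methods the zQ175 allele is a full-length heterozygous knock-in and the CK2a' knockout line was obtained on a 129/SvEv-C57BL/6J background and then crossed for many generations, so that the mice used are described as C57BL/6J. Whether DNA of the original line was left next to the deleted gene was not tested. Every difference below is zQ175:CK2a'(+/-) minus zQ175 unless another comparison is named.

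CK2 is a serine/threonine kinase built from catalytic subunits, CK2a (Csnk2a1) and CK2a' (Csnk2a2), and a regulatory subunit, CK2b (Csnk2b). Huntington's disease is caused by expansion of a CAG repeat in the huntingtin gene and affects first the medium spiny neurons, the projection neurons that make up most of the striatum. These neurons receive glutamatergic input from cortex and thalamus, whose cell bodies lie outside the striatum, so RNA of cortical or thalamic neurons in a striatal library depends on the dissection as well as on striatal cells.

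Few genes separated the groups. Of 55421 genes listed, 20914 had enough counts to be tested, and 3 passed a Benjamini-Hochberg adjusted p (FDR) of 0.1 in edgeR's quasi-likelihood test, 0.0143% of the genes tested (1 higher, 0.00478%, and 2 lower, 0.00956%). Csnk2a2 itself fell to about the level of 1 allele, Nr4a2, an orphan nuclear receptor (Nurr1) that neurons induce on activity, fell 4.68-fold, and the non-coding gene 4933406B17Rik, a neighbour of Csnk2a2, rose. Without a correction for multiple tests, 1312 genes (6.27%) had a p under 0.05, 577 (2.76%) higher and 735 (3.51%) lower, and the levels of the groups did not overlap in 120 higher (0.574%) and 118 lower genes (0.564%). DESeq2, the tool the study used, called 39 of the 26903 genes it tested (0.145%), 14 higher (0.052%) and 25 lower (0.0929%), with the same 3 genes among them. Of the 38 of these that edgeR tested, 21 did not overlap between the groups (55.3%), which their choice by a difference between the same mice largely fixes. The plot of all genes tested places the 3 genes among the others.

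**Figure D1:**
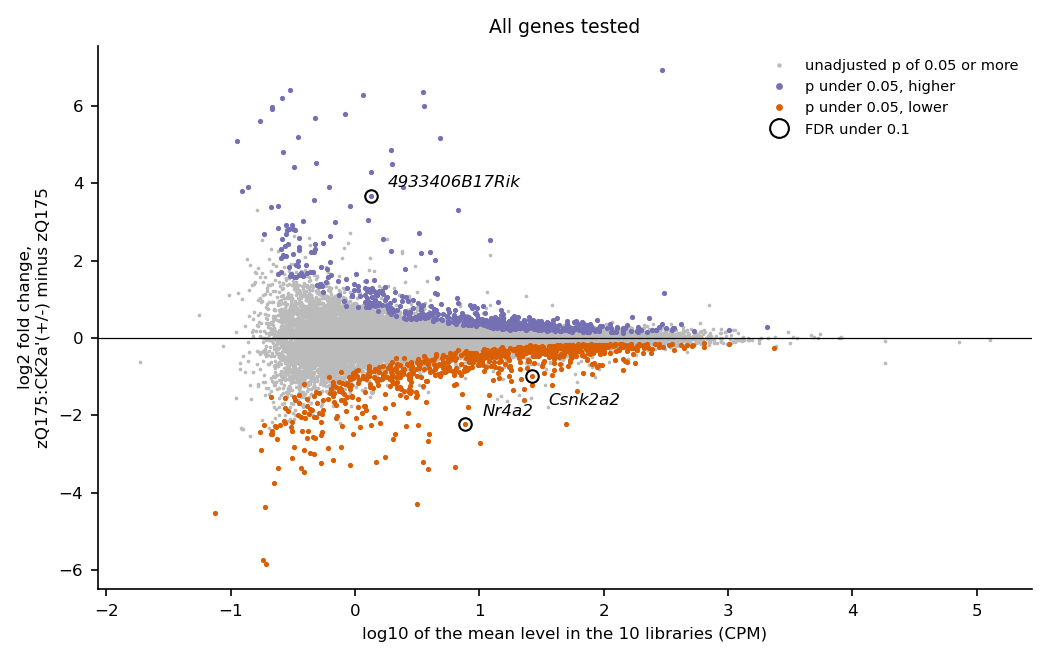
Log2 fold change between zQ175:CK2a'(+/-) and zQ175 mice (y axis) against log10 of the mean level in CPM, the count relative to a library's total adjusted by TMM (x axis) for the 20914 genes tested, 1 point a gene. Colour marks the 577 higher and 735 lower genes with an unadjusted p under 0.05, and circles mark the 3 genes that passed FDR 0.1.

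Total counts ran from 15159248 to 21168671 in zQ175 and from 13612381 to 19058342 in zQ175:CK2a'(+/-) libraries. In sums of marker genes, in CPM, 3 libraries stood apart, chosen after the values were seen. Dixon's test, given below, also flagged other sums in zQ175:CK2a'(+/-) replicates 1 and 5, which were kept. It did not flag the thalamic sum of zQ175 replicate 1 that follows. In zQ175 replicate 5 the genes of cortical excitatory neurons summed to 2611 CPM, against 1414 to 1459 CPM in the other 4 zQ175 mice. In zQ175 replicate 1 the genes of striatal projection neurons summed to 4274 CPM, against 6392 to 7304 CPM, and those of thalamic neurons to 2118 CPM, against 234 to 781 CPM. In zQ175:CK2a'(+/-) replicate 2 the choroid plexus genes summed to 4587 CPM, against 187 to 251 CPM. Leaving out these 3 libraries, an alternative added after the values were seen, left Csnk2a2 as the 1 gene past FDR 0.1 among 20551 tested, with 414 genes (2.01%) higher and 441 (2.15%) lower at an unadjusted p under 0.05, the shares to set beside each count given without them. Female mice were not spread evenly over the groups: Xist, the RNA of the inactive X chromosome, was at 990.3 to 1272 CPM in 4 of 5 zQ175:CK2a'(+/-) libraries and at 1171 and 1290 CPM in 2 of 5 zQ175 libraries. With the Xist level as covariate the same 3 genes passed.

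The deleted gene matched the labels in all 10 mice. Csnk2a2 (ENSMUSG00000046707, GRCm38 chromosome 8, 95446096 to 95490039, minus strand) was at 33.6, 32.0, 37.5, 37.0 and 34.7 CPM in zQ175 replicates 1 to 5. In zQ175:CK2a'(+/-) replicates 1 to 5 it was at 18.3, 16.3, 19.9, 17.9 and 15.8 CPM. Every mouse with 1 allele lay below every mouse with both, and the log2 fold change was -0.99 (SE 0.094, edgeR FDR = 1.61e-05, n = 5 and 5, exact two-sided permutation p = 0.00794, the smallest this design can give). Without zQ175 the allele loss gave a log2 fold change of -0.92 between CK2a'(+/-) and WT mice, and the difference between the 2 changes was -0.06 (SE 0.143, edgeR unadjusted p = 0.655). The other subunits did not pass. Csnk2a1 was at 60.8 ± 6.54 CPM (SD, n = 5) in zQ175 and 65.8 ± 8.43 CPM in zQ175:CK2a'(+/-) mice, a log2 fold change of 0.11 (SE 0.103), and Csnk2b at 40.3 ± 2.87 and 42.3 ± 3.23 CPM, a log2 fold change of 0.07 (SE 0.0861).

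Nr4a2 (ENSMUSG00000026826, chromosome 2, 57106830 to 57124003, minus strand) was the other gene that fell. It was at 11.7, 9.97, 13.4, 14.4 and 14.2 CPM in zQ175 replicates 1 to 5. In zQ175:CK2a'(+/-) replicates 1 to 5 it was at 2.76, 4.52, 1.22, 1.27 and 3.91 CPM. The groups were separated by a gap from 4.52 to 9.97 CPM, and zQ175 replicates 4 and 5 were the highest, at 14.4 and 14.2 CPM. The log2 fold change was -2.23 (SE 0.356, edgeR FDR = 0.0338, DESeq2 adjusted p = 7.81e-07). Nr4a2 also marks neurons of the claustrum and of the deepest cortical layer, which border the striatum. Its level in WT mice was 5.21 ± 2.80 CPM (SD, n = 5) and in CK2a'(+/-) mice 2.98 ± 0.334 CPM (SD, n = 3), so zQ175 mice were the high group. Between CK2a'(+/-) and WT mice the log2 fold change was -0.81 (unadjusted p = 0.0626), and the difference between the allele loss with and without zQ175 was -1.42 (SE 0.529, unadjusted p = 0.0139, edgeR FDR = 0.904). The call was not stable, since its FDR lay near the threshold with fewer mice. In edgeR the FDR of Nr4a2 ran from 0.0198 to 0.158 when 1 of the 10 mice was left out. It exceeded 0.1 without zQ175 replicate 3 (0.110), 4 (0.131) or 5 (0.113) or without zQ175:CK2a'(+/-) replicate 3 (0.158) or 4 (0.157). The log2 fold change stayed between -2.47 and -2.04 in these fits. Without the 3 libraries that stood apart the log2 fold change was -2.46 and the FDR reached 0.1, so Nr4a2 was not called.

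4933406B17Rik (ENSMUSG00000110427, chromosome 8, 95496430 to 95503718, plus strand) begins 6391 bases from the end of Csnk2a2 that holds its start, and is transcribed away from it. It had 5, 0, 6, 0 and 6 reads in zQ175 replicates 1 to 5, at most 0.369 CPM. In zQ175:CK2a'(+/-) replicates 1 to 5 it had 23, 50, 42, 49 and 42 reads, or 1.29, 3.59, 2.57, 2.60 and 2.52 CPM. The groups did not overlap, and the log2 fold change was 3.68 (SE 0.653, edgeR FDR = 0.0916). Without zQ175 it was at 0.242 ± 0.207 CPM (SD, n = 5) in WT and 3.44 ± 0.670 CPM (SD, n = 3) in CK2a'(+/-) mice, a log2 fold change of 3.81, and the changes with and without zQ175 differed by -0.12 (SE 1.05, edgeR unadjusted p = 0.908). Its counts are low, and the call held without zQ175:CK2a'(+/-) replicate 1 (edgeR FDR = 0.0957) but not without any other of the 10 mice (FDR 0.106 to 0.247) nor with the 10 libraries fitted alone (FDR = 0.156) or the 3 libraries left out (FDR = 0.459). The log2 fold change stayed between 3.38 and 4.03 with 1 mouse left out and was 4.12 without the 3 libraries. The values by library are drawn in the plot of the 3 genes that passed.

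**Figure D2:**
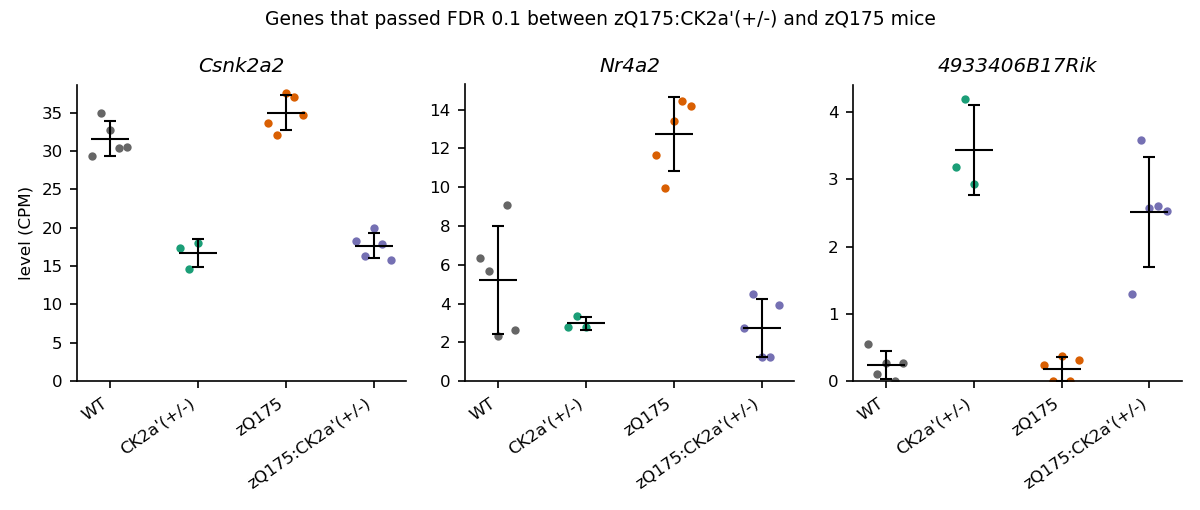
Level in CPM (y axis, linear from 0) of Csnk2a2, Nr4a2 and 4933406B17Rik in each library of the 4 genotypes (x axis), with the mean and SD as bars. Csnk2a2 and 4933406B17Rik separate all 8 mice with 1 CK2a' allele from the 10 with both, while Nr4a2 is at 9.97 to 14.4 CPM in zQ175 mice and at 1.22 to 4.52 CPM in zQ175:CK2a'(+/-) mice.

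The promoters of these 3 genes are shown because they are the genes that passed, with that of Ctsd, the higher gene with the third smallest p. They are the 250 bases before the start that RefSeq's GRCm38.p6 tables give, which for Csnk2a2 and Ctsd lies inside the gene as the deposited table places it, so that the whole Csnk2a2 window and most of the Ctsd window do too. The tables held a window for 83 of the 111 genes that the naming rule took. Capitals mark TGACG, the core that the activity-regulated factor CREB recognises, or its reverse complement CGTCA in the first 3 sequences, and CACGTG, the E-box core that the lysosomal regulator TFEB recognises, in Ctsd.
Csnk2a2, chr8:95488821-95489070, minus strand: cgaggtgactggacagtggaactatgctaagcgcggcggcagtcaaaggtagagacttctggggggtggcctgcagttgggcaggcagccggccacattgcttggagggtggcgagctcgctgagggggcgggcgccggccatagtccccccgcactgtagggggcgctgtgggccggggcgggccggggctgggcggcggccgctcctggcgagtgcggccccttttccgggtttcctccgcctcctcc
Nr4a2, chr2:57124004-57124253, minus strand: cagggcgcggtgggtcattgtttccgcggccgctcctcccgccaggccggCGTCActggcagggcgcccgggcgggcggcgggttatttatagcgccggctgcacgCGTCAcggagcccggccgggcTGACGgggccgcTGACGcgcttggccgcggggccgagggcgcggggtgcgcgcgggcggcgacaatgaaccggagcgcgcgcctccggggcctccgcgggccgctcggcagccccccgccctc
4933406B17Rik, chr8:95496164-95496413, plus strand: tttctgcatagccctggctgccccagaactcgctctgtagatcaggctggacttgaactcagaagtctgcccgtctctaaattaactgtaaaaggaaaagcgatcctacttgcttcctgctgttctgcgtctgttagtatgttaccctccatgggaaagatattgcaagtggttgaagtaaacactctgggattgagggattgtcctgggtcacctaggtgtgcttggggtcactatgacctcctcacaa
Ctsd, chr7:142387828-142388077, minus strand: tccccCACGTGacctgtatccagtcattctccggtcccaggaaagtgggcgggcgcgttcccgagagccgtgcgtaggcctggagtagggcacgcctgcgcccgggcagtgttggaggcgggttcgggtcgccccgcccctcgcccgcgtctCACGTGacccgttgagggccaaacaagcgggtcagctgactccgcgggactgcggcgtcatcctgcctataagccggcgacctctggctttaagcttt
The Nr4a2 window held 4 matches to TGACG, 107, 119, 140 and 196 bases before the start, and the windows of Csnk2a2 and 4933406B17Rik held 0. Of all 32851 windows 17.8% held at least 1 match. The Ctsd window held 2 matches to CACGTG, of which 6.02% of all windows held at least 1. A match is a description of the letters and says nothing of what binds there.

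Other genes around Csnk2a2 were compared because they share its chromosome segment. Of 98 tested genes within 5 Mb of Csnk2a2, 7 were higher and 6 lower with an unadjusted p under 0.05 (7.14% and 6.12%, against 2.76% and 3.51% of all genes), 1 passed FDR 0.1, and their median log2 fold change was -0.05. Their counts were 3 higher and 4 lower, with the same median, when the 3 libraries that stood apart were left out. Between CK2a'(+/-) and WT mice 3 of all genes tested passed FDR 0.1 in edgeR (0.0143%), and all 3 lie in this segment: Csnk2a2, 4933406B17Rik and Crnde. Crnde had at most 3 reads in each CK2a'(+/-) library. Gm45853, which lies inside Csnk2a2, was at 3.60 CPM in zQ175 and 1.87 CPM in zQ175:CK2a'(+/-) mice, a log2 fold change of -0.94 (SE 0.258), close to that of its host. Its reads cannot be told apart from those of the gene it lies in. Gm45640 (-0.79, SE 0.199), Fto, an RNA demethylase (-0.19, SE 0.0632), and Lpcat2, a lipid acyltransferase (-0.40, SE 0.147), were lower in zQ175:CK2a'(+/-) and had an unadjusted p under 0.05, as 937 of all genes (4.48%) did, also between CK2a'(+/-) and WT mice, at -0.70, -0.19 and -0.80. The other lower genes of the segment were Irx3, a homeobox gene (-1.58, SE 0.692), and Ogfod1 (-0.24, SE 0.106). The higher ones beside 4933406B17Rik were Mmp2, a matrix metalloprotease (1.09, SE 0.451), Slc12a3, a chloride cotransporter (1.06, SE 0.443), Mt2, a metallothionein (0.37, SE 0.157), Nlrc5, an activator of MHC class I genes (0.98, SE 0.321), Pllp, a myelin protein (0.34, SE 0.159), and Drc7 (2.72, SE 1.15). Drc7 was at 24.9 CPM in zQ175:CK2a'(+/-) replicate 2, the library with choroid plexus RNA. Cfap20, whose end is 11227 bases from Csnk2a2, did not pass, at 0.03. The plot of the segment shows both comparisons, which share no library.

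**Figure D3:**
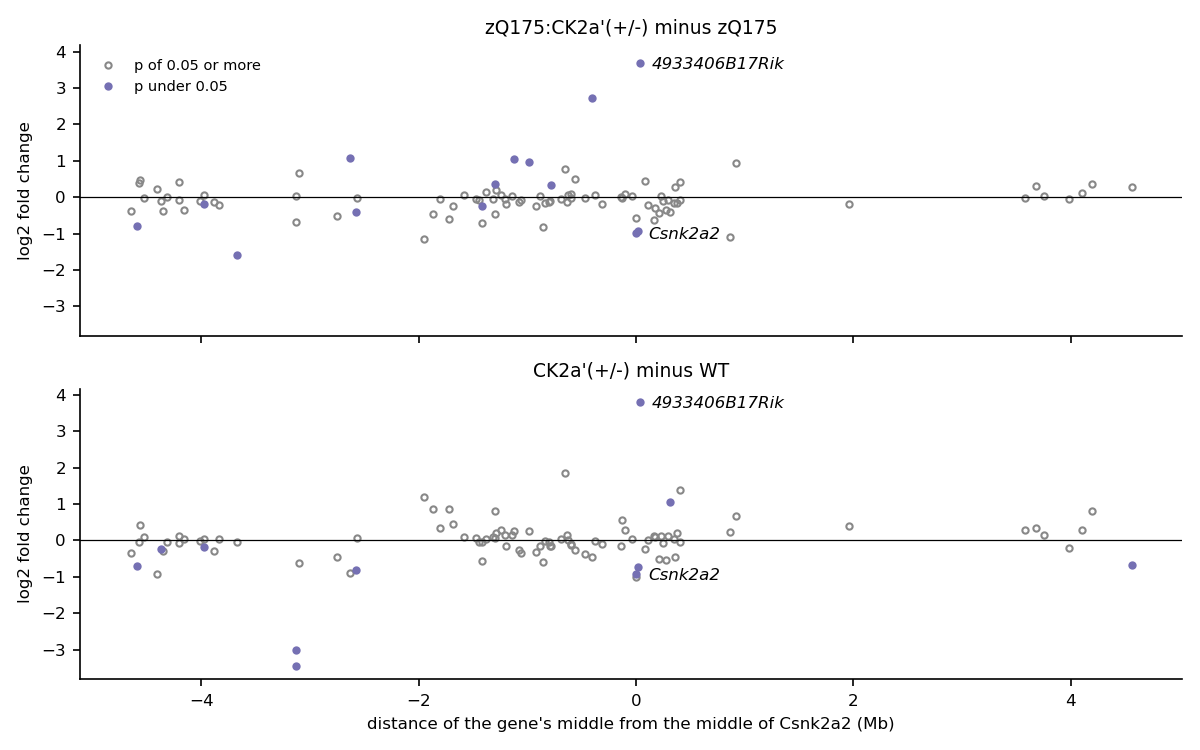
Log2 fold change (y axis) of each tested gene against the distance of its middle from the middle of Csnk2a2 in Mb (x axis), for zQ175:CK2a'(+/-) minus zQ175 above and CK2a'(+/-) minus WT below. Csnk2a2 is at -0.99 and -0.92 and 4933406B17Rik at 3.68 and 3.81, and filled points have an unadjusted p under 0.05.

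Beyond these, the genes with the smallest p that were lower in zQ175:CK2a'(+/-) mice included genes of cortical neurons and of synapses, and none of them passed FDR 0.1 in edgeR. Of the 15 lower genes with the smallest p, Csnk2a2 and Nr4a2 included, 8 did not overlap between the groups (against 0.564% of all genes). The choice by p largely fixes this. In 7 of the 15 the highest zQ175 level was in replicate 5, as in 3 of the 15 higher genes with the smallest p. The share over all genes was not counted. Fbln2, the matrix glycoprotein fibulin-2, was at 5.11, 4.64, 4.67, 4.29 and 4.14 CPM in zQ175 and 2.03, 2.94, 2.33, 2.18 and 1.80 CPM in zQ175:CK2a'(+/-) mice. The groups did not overlap, and the log2 fold change was -1.02 (SE 0.188, edgeR FDR = 0.109, DESeq2 adjusted p = 0.00286). C1ql3, a secreted organizer of excitatory synapses, was at 12.3, 7.65, 8.86, 8.38 and 26.0 CPM against 4.95, 4.31, 4.29, 1.38 and 3.43 CPM. It did not overlap either, with zQ175 replicate 5 the highest, and its log2 fold change was -1.79 (SE 0.361). Erc1, a scaffold of the presynaptic active zone, was at 88.3, 74.9, 94.7, 72.1 and 93.9 CPM against 70.4, 65.8, 64.4, 61.1 and 60.0 CPM, a smaller difference without overlap (log2 fold change -0.40, SE 0.0839). The groups also did not overlap for Pgm2l1, which makes glucose bisphosphate (-0.56, SE 0.124, and -0.23 without the 3 libraries), Basp1, a growth cone protein (-0.56, SE 0.134), and Ncald, a calcium sensor (-0.75, SE 0.180).

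The other lower genes overlapped between the groups. Slc17a7, the vesicular glutamate transporter of cortical neurons, was at 66.8, 29.1, 62.5, 50.4 and 202 CPM in zQ175 and 16.0, 9.26, 22.2, 4.35 and 35.5 CPM in zQ175:CK2a'(+/-) mice. Replicate 5 was the highest of each group, and the log2 fold change was -2.24 (SE 0.502), or -1.28 without the 3 libraries that stood apart. Tbr1, a transcription factor of deep-layer cortical neurons, was at 3.61, 11.0, 11.7, 9.23 and 17.3 CPM against 5.74, 3.16, 3.06, 2.81 and 4.51 CPM, so that 4 of 5 zQ175 mice lay above all 5 others and replicate 1 did not (-1.45, SE 0.326). Grm2, a presynaptic metabotropic glutamate receptor, was at 15.9, 1.62, 2.21, 0.791 and 11.1 CPM against 0.844, 0.144, 0.429, 1.33 and 0.601 CPM. Its high values were those of zQ175 replicates 1 and 5, and the log2 fold change of -3.21 (SE 0.713) was -0.93 (unadjusted p = 0.130) without the 3 libraries. Vxn, which promotes neuronal differentiation (-1.35, SE 0.259), Cckbr, a cholecystokinin receptor (-1.39, SE 0.289), Cpne4, a calcium-dependent membrane binding protein (-0.82, SE 0.186, and -0.44 without the 3 libraries), and Pde1a, a calmodulin-dependent phosphodiesterase (-0.95, SE 0.220), complete the 15. Vxn, C1ql3, Erc1, Ncald and Ctsd share exon positions with another gene, so reads may be split or shared there. Without the 3 libraries 12 of the 15 kept an unadjusted p under 0.05 (2.15% of all genes were lower). The choice by p used the remaining mice too, which largely fixes this count. Grm2, Basp1 (-0.26) and Ncald (-0.29) did not keep it.

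The 15 higher genes with the smallest p included lysosomal and myeloid genes and a marker of cholinergic neurons, and 10 of them did not overlap between the groups (against 0.574% of all genes), again a result of the choice by p. Among the 10 is Gm14094, separated by 0.116 against 0.120 CPM, 2 reads each. Of these 15, 1, 4933406B17Rik, passed FDR 0.1 in edgeR. Ctsd, the lysosomal protease cathepsin D, was at 73.3, 75.8, 72.9, 79.5 and 69.5 CPM in zQ175 and 93.4, 133, 98.4, 90.3 and 95.3 CPM in zQ175:CK2a'(+/-) mice. All 5 mice with 1 CK2a' allele were above all 5 zQ175 mice, with replicate 2 the highest (log2 fold change 0.46, SE 0.0962, edgeR FDR = 0.222, DESeq2 adjusted p = 0.0223). Npc2, a lysosomal cholesterol carrier, was at 17.5, 17.3, 15.4, 18.5 and 12.0 CPM against 21.3, 25.1, 22.5, 21.0 and 21.6 CPM, again without overlap (0.47, SE 0.109). Lyz2, the lysozyme of myeloid cells, was at 3.89, 4.17, 3.81, 5.41 and 4.19 CPM against 9.23, 10.1, 6.74, 9.50 and 8.53 CPM, also without overlap (1.04, SE 0.249). Tcn2, which carries vitamin B12 into cells (0.76, SE 0.182, and 0.48 without the 3 libraries), and Klf4, a transcription factor (1.13, SE 0.282), showed the same lack of overlap.

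Slc18a3, the vesicular acetylcholine transporter of cholinergic interneurons, was at 1.97, 1.91, 2.34, 3.69 and 3.76 CPM in zQ175 and 5.18, 3.01, 6.06, 7.27 and 9.19 CPM in zQ175:CK2a'(+/-) mice. Replicate 2 with 1 CK2a' allele lay among the zQ175 mice and the other 4 lay above them (1.17, SE 0.267, and 1.39 without the 3 libraries). Elovl7, a fatty acid elongase (0.73, SE 0.184), and Ogg1, which removes oxidised guanine from DNA (1.13, SE 0.286), overlapped, and Ogg1 shares exon sequence with Camk1. BC067074, of no role stated here, was at 6.56, 13.9, 9.29, 10.7 and 8.07 CPM against 18.9, 24.7, 13.4, 21.4 and 13.9 CPM (0.93, SE 0.188, and 0.58 without the 3 libraries). The remaining 5 were at low levels: Gm42047 at 0 to 1.10 CPM against 1.98 to 4.62 CPM, Tmem88 at 0 to 0.161 CPM against 0.338 to 1.06 CPM, Gm2991 at 0.234 to 0.725 CPM against 0.955 to 2.20 CPM, Gm10704 at 2.09 to 4.31 CPM against 3.73 to 7.90 CPM, and Gm14094, which had 2 reads in zQ175 replicate 2 and 0 in the other 4, at 0.120 to 3.59 CPM. All 15 had an unadjusted p under 0.05 without the 3 libraries (2.01% of all genes were higher). The choice by p used the remaining mice too, which largely fixes this count. The plot of the 30 genes by library shows how far single mice lie from their group.

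**Figure D4:**
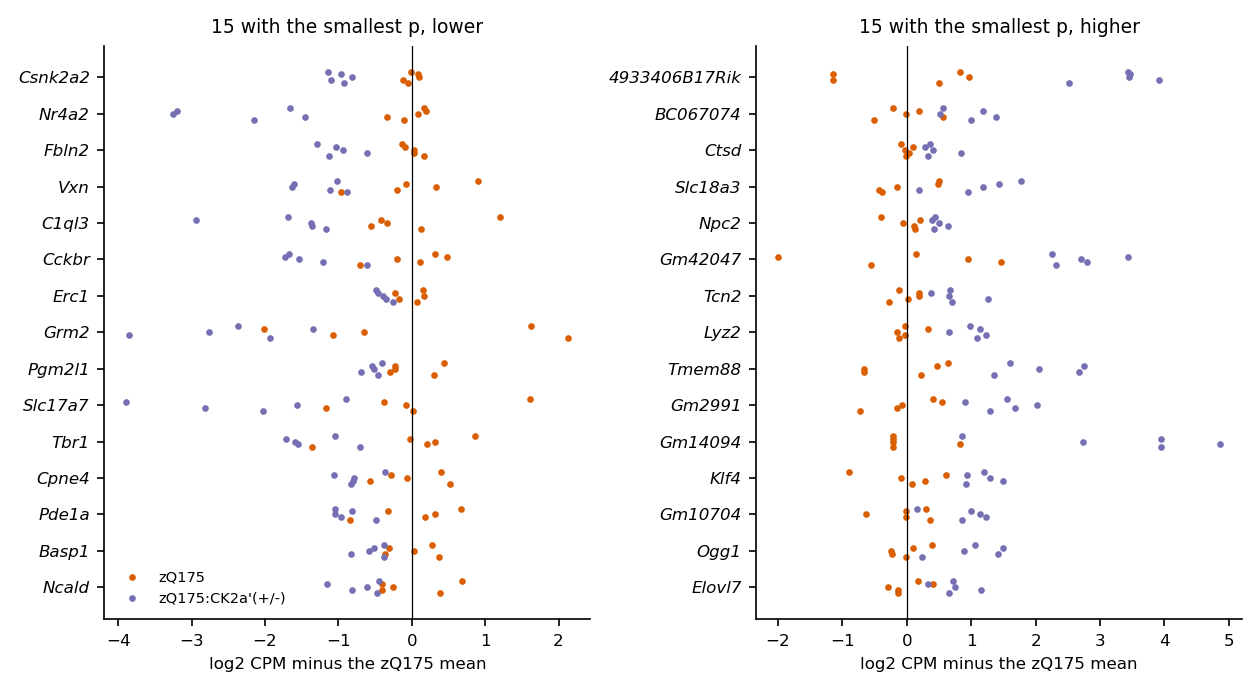
Log2 CPM, with a prior count of 2, of each library minus the mean of the 5 zQ175 libraries (x axis) for the 15 lower and the 15 higher genes with the smallest p (y axis, smallest p at the top), 1 point a library. The 2 groups do not overlap in 8 of the lower and 10 of the higher genes, and single zQ175 libraries lie far to the right for Slc17a7 and Grm2.

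Gene groups were then described by their counts and medians, beside a median of -0.01 over all genes tested, of which 48.9% were above 0. Members counted as higher or lower had an unadjusted p under 0.05 and none beyond those already named passed FDR 0.1. Of 24 genes of cortical excitatory neurons, 11 were lower and 0 higher with an unadjusted p under 0.05 (45.8%, against 3.51% of all genes), and the median log2 fold change was -0.50. The sum of the genes was 1265 to 1462 CPM in zQ175:CK2a'(+/-) mice, a range that holds the 1414 to 1459 CPM of 4 of 5 zQ175 mice, with replicate 5 above it at 2611 CPM. Slc17a7 and Tbr1 led, with Neurod6, a transcription factor of cortical pyramidal neurons (-3.34, SE 0.913), and Slc30a3, the zinc transporter of glutamatergic vesicles (-3.09, SE 0.854). Neurod6 was at 45.7 CPM in zQ175 replicate 5 and at 1.08 to 4.35 CPM in the other 4 zQ175 mice, against 0 to 2.65 CPM with 1 CK2a' allele. Without the 3 libraries 8 of the 24 were lower with an unadjusted p under 0.05 and the median was -0.19, and without zQ175 replicate 5 alone 9 did and the median was -0.42. Between CK2a'(+/-) and WT mice the median was 0.05. In bulk RNA, fewer cells of a type and less RNA per cell cannot be told apart, and the part that the dissection had in the cortical genes was not tested.

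Of 10 claustrum and layer 6b genes, 3 were lower (against 3.51% of all genes, median -0.03): Nr4a2, Ccn2, a secreted matrix protein of layer 6b (-1.11, SE 0.348), and Ntng2, a netrin-like membrane protein (-0.55, SE 0.198). In the fit that leaves out the 3 libraries 2 were lower and the median was -0.11. Synpr, a synaptic vesicle protein, was not lower (0.29, SE 0.212). The sum of the 10 genes was 97.9 CPM in zQ175 replicate 1 and 136 to 145 CPM in the other zQ175 mice. In zQ175:CK2a'(+/-) replicates 1 to 5 it was 143, 126, 113, 137 and 117 CPM. The thalamic genes were below 0 in 14 of 14, with a median of -0.87 and 3 lower at an unadjusted p under 0.05 (21.4%, against 3.51% of all genes). The median was -0.20 and the count 0 without the 3 libraries. Calb2, a calcium-binding protein, was at 75.0 CPM in zQ175 replicate 1 and at 1.19 to 4.35 CPM in the other 4, and Tcf7l2, a Wnt pathway transcription factor of thalamic neurons, at 288 CPM in replicate 1 and 15.1 to 62.4 CPM in the other 4. Lhx9 (-2.48, SE 1.14) turned to 0.20 without the 3 libraries, and Slc17a6, the thalamic glutamate transporter, was at -1.79 (SE 0.911).

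The synaptic organizer and axon guidance genes held 12 lower and 1 higher of 30 (40.0% and 3.33%, against 3.51% and 2.76% of all genes, median -0.35). After C1ql3 came Nptxr, the neuronal pentraxin receptor (-0.93, SE 0.235), Nrp2, a semaphorin co-receptor (-1.11, SE 0.284), and Slit1, a repulsive guidance ligand (-1.21, SE 0.351). Slit1 was at 100 CPM in zQ175 replicate 5, at 31.3 CPM in replicate 1 and at 16.9 to 19.3 CPM in the other 3, against 14.7 to 17.8 CPM in zQ175:CK2a'(+/-) mice. Without the 3 libraries 1 of the 12, C1ql3, kept an unadjusted p under 0.05 and the median was -0.04, with Nptxr at -0.26 and Slit1 at -0.15. The median was -0.08 without zQ175 replicate 1 alone and -0.20 without replicate 5 alone. Of 22 vesicle and scaffold genes 4 were lower and 0 higher (median -0.13, and 0 lower and 1 higher with a median of -0.02 without the 3 libraries): Syt1, the calcium sensor of vesicle release (-0.23, SE 0.0726), Stx1a, a membrane SNARE protein (-0.41, SE 0.151), Dlgap1 (-0.32, SE 0.129) and Homer2 (-0.59, SE 0.234), both scaffolds of the postsynaptic density. Of 22 glutamate receptor genes 1, Grm2, had an unadjusted p under 0.05, and 0 did without the 3 libraries, with medians of -0.07 and -0.04. Without zQ175 replicate 5 alone 3 were lower and 0 higher, with a median of -0.02. Grin3a (-0.44, SE 0.264) and Grin2d (-0.51, SE 0.372), subunits of NMDA receptors, and Gria1, a subunit of AMPA receptors (-0.22, SE 0.139), did not pass, and Grin2d was at 45.5 CPM in zQ175 replicate 1 against 9.30 to 15.7 CPM in the other 4.

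Genes of the projection neurons of the striatum differed by small amounts. Of 29 projection neuron genes, 27 had a log2 fold change above 0, with a median of 0.19 and a largest value of 0.38, and 1, Pcp4l1, had an unadjusted p under 0.05 (0.20, SE 0.0843). Ppp1r1b, which encodes the phosphatase inhibitor DARPP-32, was at 278, 592, 557, 651 and 523 CPM in zQ175 and 740, 709, 596, 810 and 532 CPM in zQ175:CK2a'(+/-) mice (0.38, SE 0.206). Replicate 1 was far below the other zQ175 mice, and the median of the 29 was 0.04 without the 3 libraries. Six3, a transcription factor (0.33, SE 0.187), did not pass. As a marker of the labelled tissue Ppp1r1b was at 278 CPM or more in all 10 libraries. Of 13 interneuron genes 3 were higher and 1 lower (23.1% and 7.69%, against 2.76% and 3.51% of all genes, median 0.11), and 1 was higher and 0 lower without the 3 libraries (median 0.25). The higher ones were the cholinergic genes Slc18a3, Slc5a7, the choline transporter (0.54, SE 0.206), and Lhx8, a transcription factor (0.63, SE 0.285), and the lower one was the peptide gene Vip, at no more than 2.04 CPM in any mouse. Of 16 inhibitory transmission genes 3 were higher and 3 lower with a median of -0.03, among them Gabbr2 (-0.83, SE 0.293), Gabra5 (-0.99, SE 0.352) and Gabrb1 (-0.28, SE 0.104), which encode GABA receptor subunits, and Slc32a1, the vesicular GABA transporter (0.29, SE 0.111). None of the 16 had an unadjusted p under 0.05 without the 3 libraries.

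The immediate early genes, to which Nr4a2 also belongs, were not lower as a group. Of 21 tested, 3 were lower and 1 higher with an unadjusted p under 0.05 (14.3% and 4.76%, against 3.51% and 2.76% of all genes), and the median was 0.06. With the 3 libraries left out 1 was lower and 0 higher, and the median was 0.05. Bdnf, a neurotrophin that cortical neurons supply to the striatum, was at 10.1, 3.88, 2.09, 3.03 and 14.5 CPM in zQ175 and 1.07, 1.15, 0.490, 0.106 and 2.52 CPM in zQ175:CK2a'(+/-) mice. The groups overlapped by 1 zQ175 mouse, and replicates 1 and 5 were again the highest (-2.66, SE 0.650, and -1.52 with an unadjusted p of 0.0505 without the 3 libraries). Jun, a subunit of AP-1, was at -0.36 (SE 0.171) and Egr4, a zinc finger factor, at 0.48 (SE 0.229).

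Of 15 microglia and complement genes 9 were higher and 0 lower with an unadjusted p under 0.05 (60.0%, against 2.76% of all genes), with a median of 0.30. The complement genes C1qa (0.46, SE 0.151) and C1qc (0.47, SE 0.154), the chemokine receptor Cx3cr1 (0.30, SE 0.107) and the adaptor Tyrobp (0.55, SE 0.220) had the smallest p. The 15 genes summed to 294, 396, 293, 397 and 314 CPM in zQ175 and to 399, 408, 385, 417 and 411 CPM in zQ175:CK2a'(+/-) mice. Replicates 2 and 4 of zQ175 lay within the range of the other group and replicates 1, 3 and 5 below it. Without the 3 libraries 0 of the 15 had an unadjusted p under 0.05 and the median was 0.20. Among 12 oligodendrocyte genes 6 were higher (median 0.28), with the myelin genes Cnp (0.29, SE 0.105), Mog (0.34, SE 0.123), Mag (0.33, SE 0.128) and Mbp (0.28, SE 0.115) leading, and 1 was without the 3 libraries (median 0.18). Of 14 astrocyte genes 2 were higher, S100b (0.32, SE 0.137) and Gfap (0.55, SE 0.241), the median was 0.03, and Vim (0.21) and Gja1 (-0.14) did not pass. With the 3 libraries left out 0 of the 14 were higher and the median was 0.12. None of the 11 endothelial and pericyte genes had an unadjusted p under 0.05 with or without the 3 libraries (median -0.02, and 0.02 without them), with Abcb1a at -0.28 (SE 0.153), Rgs5 at -0.23 (SE 0.148), Flt1 at -0.16 (SE 0.114) and Slc2a1 at 0.23 (SE 0.164).

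The lysosome list was drawn up after Ctsd and Npc2 were seen, so its count supports nothing further. Of its 24 genes 6 were higher and 0 lower with an unadjusted p under 0.05 (2.76% of all genes were higher), with a median of 0.13, and 3 were higher without the 3 libraries (median 0.14). Lamp1, a lysosomal membrane protein, was at 187, 169, 166, 188 and 163 CPM in zQ175 and 191, 202, 212, 193 and 194 CPM in zQ175:CK2a'(+/-) mice, a narrow separation (0.19, SE 0.0662), and Ctsb, cathepsin B, was at 0.20 (SE 0.0739). The CACGTG core of the Ctsd window was in 8 of the 20 lysosome genes with a window, and in 6.86% of all genes with one. Of the 15 microglial and complement genes 9 were higher with all 10 libraries and 0 without the 3, their sums overlapped between the groups, and their part in this difference was not tested.

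Among 21 chaperones and heat shock factors 3 were higher and 1 lower (14.3% and 4.76%, against 2.76% and 3.51% of all genes), and the median was -0.08. The balance turned without the 3 libraries, with 1 higher and 3 lower and a median of -0.06, and leaving out zQ175 replicate 3 alone moved the median to 0.020. Bag3, a co-chaperone of selective autophagy, was at 11.7, 11.3, 11.9, 15.8 and 13.4 CPM in zQ175 and from 16.4 to 22.6 CPM in zQ175:CK2a'(+/-) mice, without overlap (0.51, SE 0.134). Its small heat shock partner Hspb8 was at 0.54 (SE 0.232) and Cryab, another small heat shock protein, at 0.41 (SE 0.113), while Dnajb6, a suppressor of polyglutamine aggregation, was at -0.33 (SE 0.118). Choroid plexus genes had 9 higher of 14 and a median of 3.31, which came from 1 library: Ttr, the thyroxine carrier of choroid plexus, was at 2904 CPM in zQ175:CK2a'(+/-) replicate 2 and at 0.861 to 9.96 CPM in the other 9 mice. Without that library the median was -0.29 and Ttr was at -0.29. Tmem72, Slc4a5 and Cldn2 showed the same single library at 45.2, 34.7 and 11.5 CPM and at most 0.619 CPM elsewhere. The Y-linked and Xist genes followed the number of females, with Uty, Ddx3y, Eif2s3y and Kdm5d between -1.63 and -1.48 and 0 of 5 at an unadjusted p under 0.05. These values rest on zQ175:CK2a'(+/-) replicate 5, the library of its group with Y-linked RNA, without which the median of the list went from -1.50 to -10.5. The plot of the lists gives their members.

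**Figure D5:**
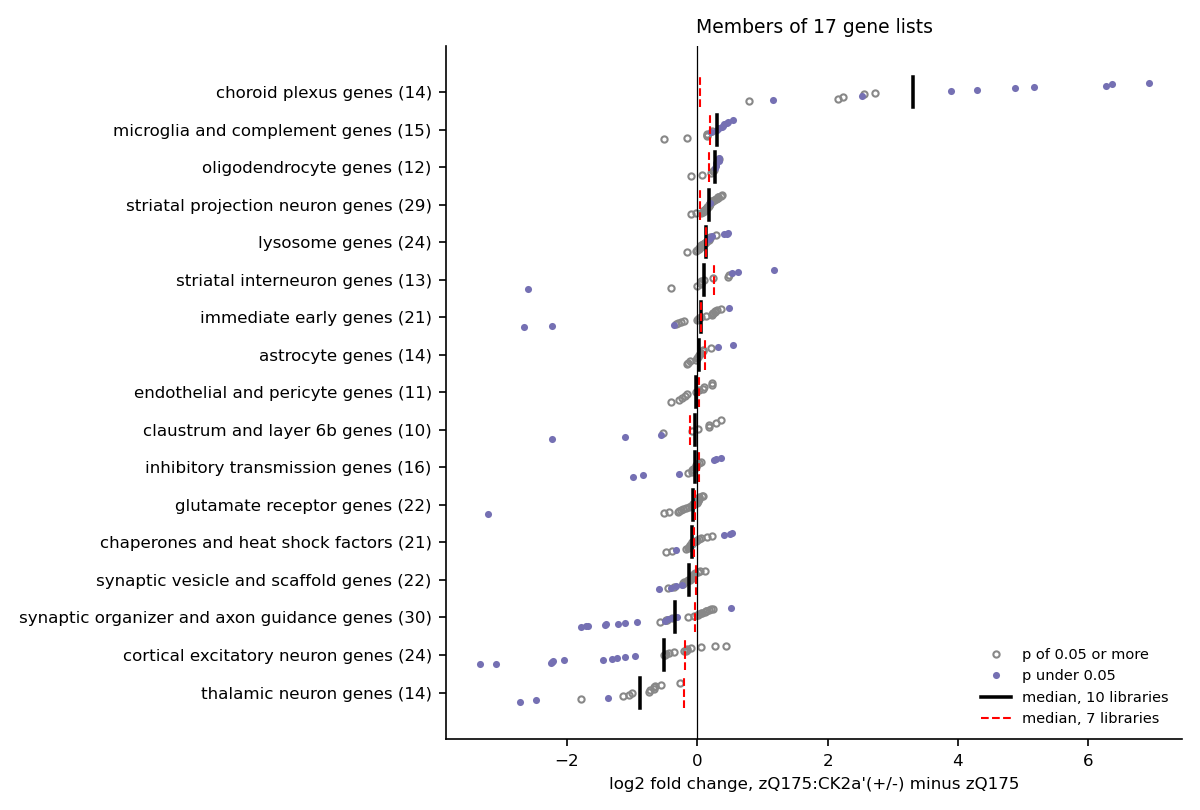
Log2 fold change (x axis) of each tested member of 17 gene lists (y axis, number tested in parentheses), with filled points for an unadjusted p under 0.05, the median over all 10 libraries as a solid bar and the median without the 3 libraries that stood apart as a dashed bar. The choroid plexus median moves from 3.31 to 0.04 and the thalamic median from -0.87 to -0.20, while the microglia median moves from 0.30 to 0.20.

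Whether the allele loss acted differently with the zQ175 allele was tested as the difference between the 2 changes, with the 8 libraries without zQ175 as the second comparison. Of 20914 genes 1, BC067074, passed FDR 0.1 in edgeR (0.00478%), and 1127 (5.39%) had an unadjusted p under 0.05. BC067074 was at 13.2 ± 1.59 CPM (SD, n = 5) in WT, 7.24 ± 0.697 CPM (n = 3) in CK2a'(+/-), 9.70 ± 2.80 CPM (n = 5) in zQ175 and 18.5 ± 4.86 CPM (n = 5) in zQ175:CK2a'(+/-) mice. The log2 fold change was thus -0.86 without zQ175 and 0.93 with it, a difference of 1.79 (SE 0.294, FDR = 0.0951). The next 4 by p did not pass. Crnde, a non-coding RNA 3089980 bases from Csnk2a2, fell without zQ175 (-3.45, SE 0.540, edgeR FDR = 0.0250) and was at 0.02 with it. Its counts without zQ175 were low, with 3, 3 and 1 reads in CK2a'(+/-) and 20, 19, 8, 46 and 47 reads in WT mice. Hoxc8, a homeobox gene of the caudal body axis, was at 0.0168 CPM in CK2a'(+/-) mice, where 2 of 3 libraries are at 0, and at 0.0997, 0, 0.408, 4.13 and 2.92 CPM in WT mice, so that 2 of 5 WT libraries carry that arm. It was at 4.88 to 11.9 CPM in zQ175:CK2a'(+/-) mice against 0.307 to 3.69 CPM in zQ175 mice. Iqcj, a calmodulin-binding motif protein gene, was at 1.72 to 1.97 CPM in zQ175 and 0.212 to 0.901 CPM in zQ175:CK2a'(+/-) mice (-1.77, SE 0.442) and shares exon sequence with Iqschfp, and Gm2991 differed by 2.83 (SE 0.625). The call was lost in several alternatives: 0 genes passed with the Xist level as covariate, without the 3 libraries, or without any 1 mouse other than WT replicate 3 (2 genes), zQ175 replicate 2 and zQ175:CK2a'(+/-) replicates 3 and 5 (1 gene each). Of all genes tested 49.8% had the same sign with and without zQ175, and so did 10 of the 15 lower and 8 of the 15 higher genes with the smallest p.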

How the data were processed

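RNA-seq of mouse striatum gave 18 libraries, 1 per mouse, and the 10 that carry zQ175 are compared here. After trimming (Trimmomatic) and alignment to GRCm38 (HISAT2 2.1.0), the authors removed duplicated and poorly mapped reads and deposited raw counts per gene (Subread 1.6.2), not normalized. Exon lengths, other values in the deposited table, were not tested. Tools and versions are those of the submitters' processing notes. The library kit keeps the strand, but whether counting used it is not given in the sources used here, so overlapping genes are uncertain. Counts were tested in R 4.3.3 with edgeR 4.0.16 (filterByExpr, TMM, quasi-likelihood test) with all 18 libraries in 1 model of genotype alone, and all adjusted p values of single genes are edgeR's unless DESeq2 1.42.0 is named. The threshold was FDR 0.1. The scripts were tested on simulated data with known changes. No pair of libraries in a group was identical (chi-square per degree of freedom from 7.88 to 54.1). p-values measure the spread between mice.

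Genes named were Csnk2a2, all that passed, the 15 with the smallest p in each direction, the 5 with the smallest interaction p, the 4 members of each list with the smallest p (all members of lists of up to 7 genes), and genes within 5 Mb of Csnk2a2 with an unadjusted p under 0.05. Iqschfp, Camk1 and Cfap20 are named for position only, and Drc7's high library was seen in its values. The comparison, the lists and this rule were chosen with earlier results of these data known, and the lysosome list after the values were seen. The rule took 1 further gene, not reported here. A gene is in 2 lists where both fit. Alternatives were DESeq2, DESeq2's size factors, testing without any filter, a filter of 10 counts or more in 10% of libraries, the 10 libraries alone, a robust fit, the Xist level as covariate, the replicate number as block, FDR 0.05, each mouse left out in turn and, added later, the 3 libraries that stood apart left out.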

Additional observations from a re-analysis of the deposited data

Results flagged for a closer look

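Samples far from the rest of their group of 5 were looked for with Dixon's test at the 95% level, which chance passes in about 1 of 20 groups. It was run on log2 values of the 15 genes with the smallest p in each direction and the 5 of the interaction (66 groups, 4 found) and of the list sums (40 groups, 9 found). Among the genes, Ctsd was at 133 CPM in zQ175:CK2a'(+/-) replicate 2 against 90.3 to 98.4 CPM in the other 4, and Hoxc8 was at 11.9 CPM in replicate 4 against 4.88 to 6.25 CPM. Lyz2 was at 5.41 CPM in zQ175 replicate 4 against 3.81 to 4.19 CPM, and Gm14094 at 0.116 CPM in zQ175 replicate 2 against 0 CPM.

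Among the list sums, 3 low values came from zQ175 replicate 1: 97.9 CPM for claustrum and layer 6b genes (others 136 to 145 CPM), 4274 CPM for striatal projection neuron genes (6392 to 7304 CPM) and 206 CPM for interneuron genes (309 to 338 CPM). In zQ175 replicate 5 the cortical excitatory neuron genes summed to 2611 CPM (1414 to 1459 CPM). In zQ175:CK2a'(+/-) replicate 2 the choroid plexus genes summed to 4587 CPM (187 to 251 CPM), the interneuron genes to 294 CPM (348 to 367 CPM) and the inhibitory transmission genes to 2716 CPM (2916 to 2994 CPM). The synaptic organizer and axon guidance genes summed to 1772 CPM in zQ175:CK2a'(+/-) replicate 1 (1646 to 1675 CPM). The sex-linked genes summed to 209 CPM in zQ175:CK2a'(+/-) replicate 5, the library with Y-linked RNA (990.3 to 1272 CPM). The causes were not tested.

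The change with CK2a' allele loss differed between mice with and without zQ175 for BC067074, by 1.79 on the log2 scale (edgeR FDR = 0.0951 for the difference).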

How the results depend on the processing

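Csnk2a2 passed under every alternative, with log2 fold changes of -1.03 to -0.95 and a highest adjusted p of 0.00175. The count of genes past FDR 0.1, 3 in the report, was 39 with DESeq2, 51 without a filter on low counts, 1 with the replicate number as block and 1 with the 3 libraries that stood apart left out, and ran from 1 (without zQ175 replicate 3, 4 or 5 or zQ175:CK2a'(+/-) replicate 3 or 4) to 6 (without zQ175 replicate 1) with 1 mouse left out. The interaction count, 1 in the report, was 19 with DESeq2, 10 without a filter, 0 with the Xist level as covariate, 0 at FDR 0.05 and 0 without the 3 libraries, and ran from 0 to 2 with 1 mouse left out. The replicate numbers do not pair the mice (correlations of same-numbered deviations from -0.053 to 0.0075, and no mouse matched its own number best), so the block result says nothing of pairing. Signs turned for Xist (-0.0090 with the Xist covariate, -0.030 without the 3 libraries), Crnde (-0.056 with that covariate, -0.0094 under the replicate block, -0.11 without the 3, and -0.16 to 0.15 with 1 mouse left out), Grin2d (0.19 without the 3, and -0.67 to 0.13 with 1 left out), Ttr (-0.30 without the 3, and -0.29 to 7.34 with 1 left out) and Lhx9 (0.20 without the 3). The causes were not tested. Of 2099 values of single genes under an alternative, 2001 kept their direction and their side of the threshold, 66 gained and 19 lost a call. List medians kept within the spread in 373 of 380. Depth limits 4933406B17Rik, with at most 50 reads in any of the 10 libraries, and the other genes at low levels.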
